A study of Rattus norvegicus with 24 samples.

Results

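Interferon-stimulated genes are transcribed when cells sense interferon, and 9 of them were followed in rat blood cells: Mx1, Mx2, Isg15, Oasl, Stat2, Irf7, Irf9, Parp14 and Rsad2. The genes were chosen by symbol, from probe sets that the platform annotation ties to 1 gene. They make up 9 of the 14218 genes measured in this way. Mx2, Stat2, Irf9 and Parp14 had 2 probe sets each and the other genes 1, which gives 13 of 20832 probe sets. All 13 passed the filter on low values.

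Peripheral blood mononuclear cells (PBMC) of 24 female Wistar rats were hybridised to an Affymetrix whole-genome rat expression array, in 12 groups of 2 arrays with each array from a separate rat. NOCIA rats (NORA in the labels) were healthy and untreated. CIA rats (RA in the labels) had collagen-induced arthritis, raised by immunisation with bovine type II collagen in adjuvant, a model of rheumatoid arthritis that every treated arm carried too. Both were sampled at baseline, and NOCIA and 4 CIA arms again at 1 hour and at 34 days. The arms were MS (stimulation by a needle inserted and rotated at points on the lower back and leg, AP in the labels), MTX (methotrexate, the standard drug), PLA (saline in place of methotrexate) and ANE (no therapy, with isoflurane as the anaesthetic at sampling in place of ether). ANE and PLA thus differ in the injection and in the anaesthetic, and rats were killed at sampling, so that no rat was measured at more than 1 time. The age of the rats is not given in the sources used here.

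Interferons are secreted signals that cells release on sensing viral or self nucleic acids. Type I interferons bind the receptor Ifnar1 and Ifnar2, whose kinases activate Stat2. Stat2 acts with Irf9 in a complex that binds the interferon-stimulated response element in front of target genes. Stat2 and Irf9 are thus parts of the relay, Irf7 is the factor that amplifies interferon transcription, and the other members are effectors. Mx1 and Mx2 are antiviral GTPases, Isg15 is a ubiquitin-like modifier, Oasl belongs to the oligoadenylate synthetase family, Rsad2 (viperin) blocks virus replication and Parp14 is an ADP-ribosyltransferase. Blood cells of patients with rheumatoid arthritis often carry raised levels of such genes.

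The binding element is shown because it is what ties the members to a shared factor. RefSeq promoters (GRCr8 build, 250 bases before to 50 after the start) were at hand for 7 of the 9 genes, all but Mx2 and Isg15. The element's core was searched on both strands as GAAA, any 2 bases and GAAA, and occurred in 3 of these 7 and in 3.92% of 33469 promoters of the same length. Each is printed with 10 bases on either side, on the strand of the gene, with the match in capitals.
Parp14 (chr11:78408048-78408077, plus strand): tccaggaaatGAAAGTGAAAgaagtaagtt
Irf7 (chr1:205800073-205800102, minus strand): acagtttaggTTTCATTTTCccgagacgca
Rsad2 (chr6:48788248-48788277, minus strand): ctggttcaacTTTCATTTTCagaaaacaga
Counted from the transcript start of the promoter table, the match began 76 bases before it in Parp14, 69 in Irf7 and 147 in Rsad2, and lay on the opposite strand in Irf7 and Rsad2. In Irf7 and Rsad2 that start lies inside the annotated span of the gene, which has another start upstream, and in Irf7 the match does too. The core of the element bound after interferon-gamma (TTC, any 3 bases and GAA) occurred in 2 of the 7 (Irf9 and Parp14) and in 8.87% of all promoters. In Parp14 it did not overlap the first element. These letters were not found in the windows of Mx1, Oasl and Stat2. On the same assembly Mx1 and Mx2 lie near each other, with 1 gene (Fam3b) between them.

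All levels are log2 values after robust multi-array averaging (RMA), so that a difference of 1 is a 2-fold difference, and array medians lay between 5.49 and 5.58. Levels of different genes are not compared, because probes differ in their response. The median percentile of a probe set within an array places it among all probe sets and gives no order of the genes. It was 99.4 for Rsad2, 96.2 for Irf7, 94 for Mx1 and 91.3 for Isg15. For Mx2 it was 65.2 at probe set 1387283_at and 21.6 at 1369202_at. Across the 24 arrays Isg15 ranged over 2.48, Irf7 over 2.65, Rsad2 over 2.67 and Mx1 over 2.86, while the probe sets of Irf9 ranged over 1.13 and 0.92.

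Markers of PBMC were read on these arrays, as were markers of other blood cells. Median percentiles within an array ran from 47.6 (Cd4) to 99.1 (Cd3g) for 12 T cell genes, 78.3 to 92.8 for 7 B cell genes, 80.2 to 99.0 for 8 NK cell genes and 32.4 (Ms4a7) to 99.95 (Lyz2) for 9 monocyte genes. They ran from 38.1 to 99.3 for 8 neutrophil genes, 65.1 to 99.97 for 15 platelet genes and 83.7 to 99.99 for 6 erythroid genes, so platelet and red cell transcripts were in the samples too. Platelet transcripts varied between the 2 arrays of some groups. The mean centred level of 15 platelet markers was highest in the first MS array at 34 days (1.32, against 0.49 in the second). Next came the first MS array at 1 hour (1.14, against -0.34), the second PLA array at 1 hour (0.97, against -0.16) and the first ANE array at 1 hour (0.92, against -0.38). No other array was above 0.49. They are called the 4 arrays that stood apart, and counts are also given without them. Of 11 markers of plasmacytoid dendritic cells, the main source of type I interferon in blood, only 5 were measured, and Siglech had no probe set with 1 symbol.

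**Figure D1:**
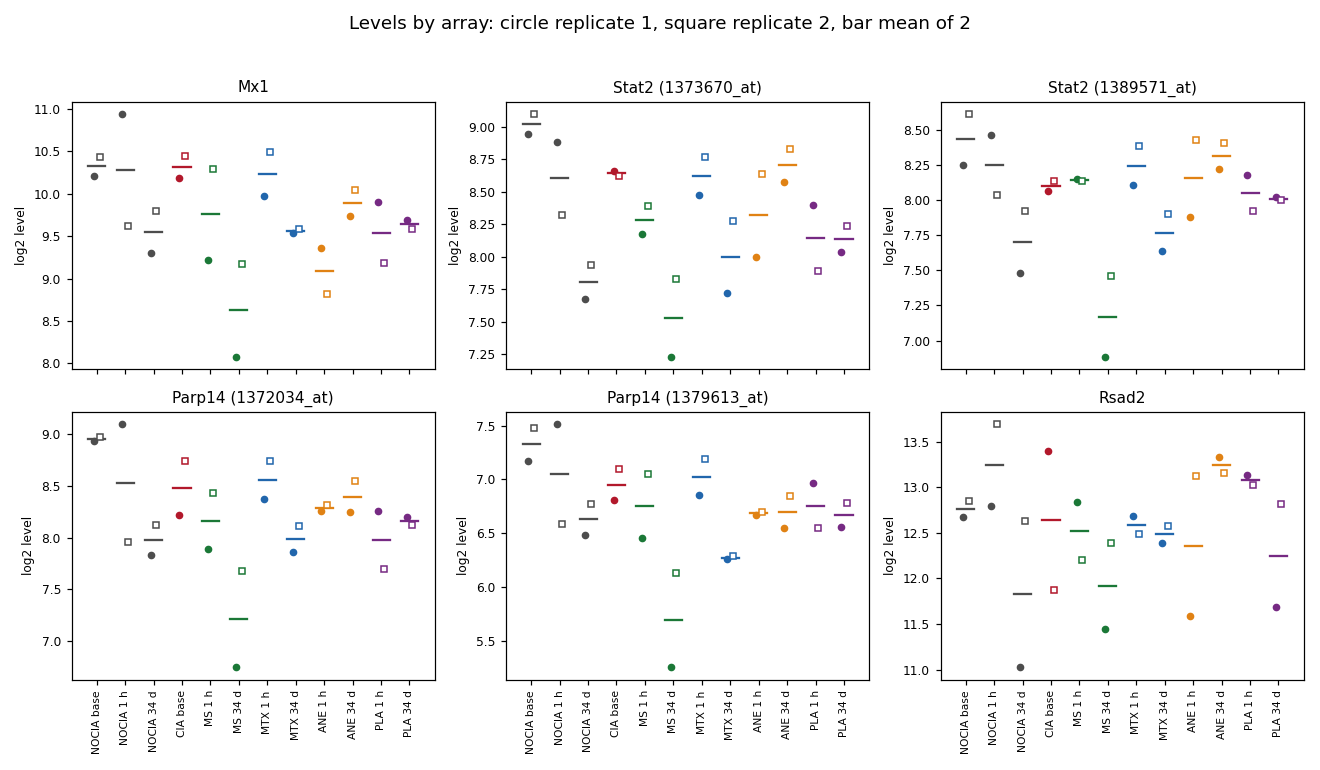
Log2 level (vertical axis) of Mx1, Stat2, Parp14 and Rsad2 in each of the 24 arrays, by group (horizontal axis). Circles are replicate 1, squares replicate 2 and bars the mean of 2. Mx1, Stat2 and Parp14 were lowest in MS at 34 days, where Mx1 stood at 8.08 and 9.17, and Rsad2 stood at 11.03 and 12.63 in NOCIA at 34 days.

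The order of the groups had few clear steps. Of 143 gaps between neighbouring group means, 11 for each of the 13 probe sets, 135 were smaller than the SD between replicates of that probe set. MS at 34 days had the lowest mean for 8 of the 13 probe sets, and NOCIA at baseline the highest for 6. The steps larger than the SD included those that set MS at 34 days below NOCIA at 34 days for Stat2 (1389571_at) by 0.53 and for Parp14 (1372034_at) by 0.76.

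The first question is whether arthritis itself went with a change of these genes before therapy. No probe set of the members was called between CIA and NOCIA at baseline, at a Benjamini-Hochberg adjusted p under 0.05 in limma over 20690 probe sets, and 0.00483% of all probe sets were. At an unadjusted p under 0.05 none of the 13 passed, against 3.81% of all. The median difference of the 13 was -0.13, against 0.01 for all probe sets. Irf7 stood at 10.13 and 9.61 in CIA and at 11.02 and 11.12 in NOCIA. Isg15 stood at 8.10 and 8.69 in CIA and at 9.24 and 9.23 in NOCIA. For both genes each CIA array was below each NOCIA array. That held for 6 of the 13 probe sets (Isg15, Irf7 and both of Stat2 and Parp14) and for 23.1% of all probe sets. None of the 13 was apart in the other direction, against 28.6% of all.

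The next question is whether the members differed from the untreated disease at the end of therapy, and here the clearest change was in MS. Mx1, Stat2 and Parp14 fell in MS at 34 days against CIA baseline, at all of their 5 probe sets. Mx1 came to 31.1% of its baseline level, Stat2 to 46.2% and 52.5% and Parp14 to 41.6% and 41.7%. Isg15, Oasl, Irf7, Irf9, Mx2 and Rsad2 did not pass the test.

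Mx1 stood at 8.08 and 9.17 in MS at 34 days and at 10.19 and 10.44 in CIA at baseline. This was a fall by 1.69 ± 0.44 (log2 difference ± SE, n = 2 arrays a group, limma adjusted p = 0.0431). Stat2 (1373670_at) stood at 7.23 and 7.83 against 8.66 and 8.62. The groups were apart for both genes, and in each the first MS array was the lower. Stat2 fell by 1.11 ± 0.28 (limma adjusted p = 0.0404), and by 0.93 ± 0.24 at 1389571_at (limma adjusted p = 0.0431). Parp14 (1372034_at) stood at 6.75 and 7.68 against 8.22 and 8.74, a fall by 1.27 ± 0.35 (limma adjusted p = 0.0465). Its second probe set, 1379613_at, read 5.25 and 6.13 against 6.81 and 7.09, a fall by 1.26 ± 0.32 (limma adjusted p = 0.0404). The 2 probe sets of Parp14, like those of Stat2, thus gave nearly the same change.

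Mx2 at 1387283_at stood at 5.85 and 6.26 in MS at 34 days and at 6.57 and 7.50 in CIA at baseline, lower by 0.98 ± 0.48 without a call (limma adjusted p = 0.144) and without overlap. Isg15 stood at 9.25 and 8.39 in MS at 34 days and at 8.10 and 8.69 in CIA at baseline, and Oasl at 8.03 and 7.58 against 7.55 and 8.08. For both genes the groups overlapped. Irf7, at 10.28 and 9.69 against 10.13 and 9.61, overlapped too. Rsad2 stood at 11.44 and 12.39 in MS and at 13.40 and 11.87 in CIA, and its groups overlapped too.

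The 5 falls stand against 5.44% of all probe sets called lower and 6.96% called in either direction. They are of 3 genes, since the 2 probe sets of Stat2 and of Parp14 read alike (r = 0.92 and 0.95). With 1 probe set a gene, 3 of 9 were called lower, with a median of -0.72. At the study's thresholds, an unadjusted p under 0.05 and a fold change over 2, 4 of the 13 were lower, against 8.63% of all. Changes of the 13 ran from -2.02 to 0.43 with a median of -0.93, and the median of all probe sets was -0.16. In 6 of 13 every MS array was below every CIA array, against 38.4% of all. Taken singly, the first MS array had a median difference of -1.19 from the baseline mean with 9 of 13 below it, and the second -0.64 with 13 of 13 below it.

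The calls rested on few arrays, and the median of the 13 was -0.44 without the first CIA array. None of the 13 was called without the first MS array or without either CIA array, where 0.0% of all probe sets were called, nor with array weights or in a fit of these groups alone. Without the first MS array, which also stood apart by its platelet transcripts, the differences were -1.14 for Mx1, -0.81 and -0.64 for Stat2 and -0.80 and -0.82 for Parp14. Cell type markers moved in the same comparison. T cell markers were below 0 in 11 of 12 with a median of -1.29 (3 called), B cell markers in 6 of 7 (5 called) and NK cell markers in 8 of 8 (1 called). Monocyte markers were below 0 in 8 of 9 and neutrophil markers in 7 of 8, with medians of -0.67 and -0.46 and none called. Erythroid markers were below 0 in 3 of 6. All 15 platelet markers were above 0, with a median of 1.53 and none called. The mean centred T cell marker level was -1.55 and -0.23 in the MS arrays and 0.46 and 0.49 in CIA. The part of these markers in the falls was not tested, and in bulk cells fewer cells of a type and less RNA per cell cannot be told apart.

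The other arms showed no call at 34 days against CIA baseline. In MTX 0.0% of all probe sets were called, and 2 of the 13 had an unadjusted p under 0.05, against 5.85% of all. These were Stat2 (1373670_at), 7.73 and 8.27 in MTX and lower by 0.64 ± 0.28, and Parp14 (1379613_at), 6.26 and 6.28 and lower by 0.68 ± 0.32 (limma adjusted p = 0.81 and 0.85). In PLA (0.0% called) Isg15 stood at 9.79 and 9.70, higher by 1.35 ± 0.61 (limma adjusted p = 1.00), the only member of that kind, against 4.85% of all. In ANE (0.0% called) it was Mx2 at 1369202_at, described below, against 1.48% of all. Median differences of the 13 were -0.33 in MTX, 0.06 in ANE and -0.28 in PLA, against -0.01, -0.04 and -0.02 for all probe sets. These comparisons share the CIA baseline arrays.

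**Figure D2:**
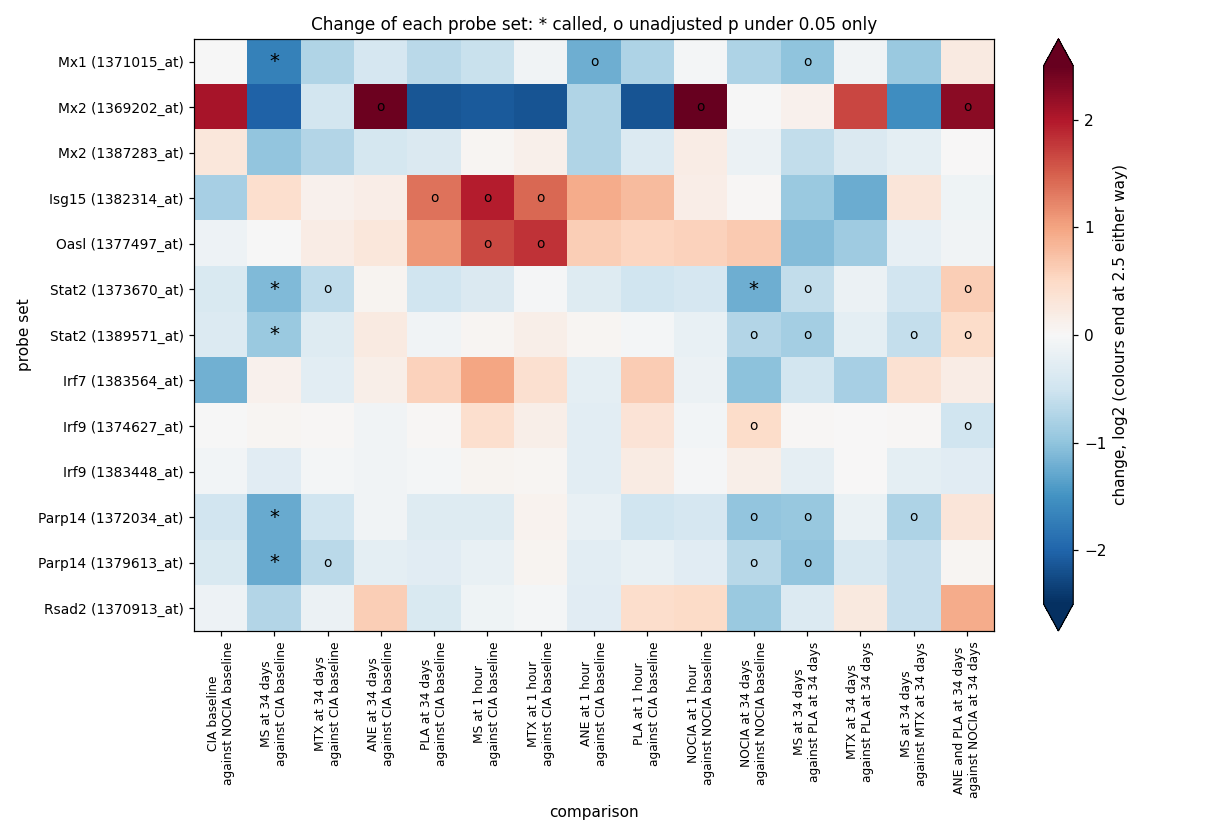
Log2 change of each of the 13 probe sets (rows) in 15 comparisons of groups (columns), red higher and blue lower in the group named first. A star marks a call and a circle an unadjusted p under 0.05 only. Stars occur in MS at 34 days against CIA baseline (5) and in NOCIA at 34 days against NOCIA baseline (1).

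Healthy rats show what 34 days did without disease or therapy. Stat2 fell in NOCIA at 34 days against NOCIA baseline at probe set 1373670_at, to 43.0% of its level. The arrays stood at 7.67 and 7.93 at 34 days and at 8.94 and 9.10 at baseline, a fall by 1.22 ± 0.28 (limma adjusted p = 0.0102). The second probe set of Stat2 read 7.48 and 7.92 against 8.25 and 8.61, lower by 0.73 ± 0.24 without a call (limma adjusted p = 0.064). Parp14 was lower by 0.98 ± 0.35 and by 0.70 ± 0.32 (limma adjusted p = 0.0882 and 0.187), and Irf9 (1374627_at) higher by 0.45 ± 0.21 (limma adjusted p = 0.195). These 5 of 13 had an unadjusted p under 0.05, against 24.3% of all, and their groups did not overlap. Over all 13, the groups were apart in 7 with 34 days lower and in 2 with 34 days higher, against 34.3% and 31.7% of all.

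Of all probe sets 12% were called in NOCIA over this time and 5.66% were called lower, so that 1 call in 13 is no result about the members. Mx1 stood at 9.30 and 9.80 at 34 days and at 10.21 and 10.43 at baseline, without a call. The median of the 13 was -0.70, against -0.02 for all, and -0.13 without the first 34-day array. The call of Stat2 was lost without that array, where it was lower by 1.09, and without either baseline array, where it was lower by 1.30 and 1.14. Without the 4 arrays that stood apart, none of which is of these groups, 3 of the 13 were called, against 30.4% of all probe sets. T cell markers were below 0 in 12 of 12 (2 called), B cell markers in 7 of 7 (6 called) and NK cell markers in 8 of 8 (2 called), and 7 of 8 neutrophil markers were above 0 (1 called). Their part in the change of Stat2 was not tested.

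Whether the members' change to 34 days differed between an arm and healthy rats was tested directly. For MS none of the 13 was called or had an unadjusted p under 0.05 (limma, 0.0338% of all probe sets called and 19.9% under 0.05), with a lowest adjusted p of 0.374. The fall in MS is thus not shown to differ from the change in healthy rats. For ANE no member was called against 2.86% of all. Stat2 had the lowest adjusted p there, with a difference of 1.28 ± 0.39 (limma adjusted p = 0.0938) and 0.95 ± 0.35 at the second probe set (limma adjusted p = 0.163). ANE arrays held Stat2 at 8.57 and 8.83 at 34 days, near CIA baseline, while it was lower in NOCIA. These 2 were under 0.05 unadjusted, against 15.8% of all, and 2 of the 13 were called without the 4 arrays that stood apart, against 18.3% of all. In the same test B cell markers were above 0 in 7 of 7 (4 called) and NK cell markers in 8 of 8 (none called), and their part was not tested. For MTX none was called or under 0.05, against 0.0242% and 7.5% of all, and for PLA none, against 0.00967% and 9.8%.

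Between arms at 34 days no member was called (limma, 0.0% of all probe sets in each of 3 comparisons). MS was lower than PLA at an unadjusted p under 0.05 for the same genes as above: Mx1 by 1.01 ± 0.44, Stat2 by 0.61 ± 0.28 and 0.84 ± 0.24, and Parp14 by 0.95 ± 0.35 and 0.98 ± 0.32 (limma adjusted p from 0.179 to 0.207). These 5 of 13 stand against 13.4% of all probe sets at that level. In PLA at 34 days Mx1 stood at 9.69 and 9.59, above both MS arrays. In MS against PLA, T cell markers were below 0 in 11 of 12 (median -1.03) and NK cell markers in 8 of 8 (median -1.34). B cell markers were below 0 in 6 of 7, monocyte markers in 8 of 9 and neutrophil markers in 7 of 8. Platelet markers were above 0 in 14 of 15 (median 1.60), and no marker was called. Their part was not tested. Against MTX, MS was lower for Stat2 (1389571_at) by 0.60 ± 0.24 and for Parp14 (1372034_at) by 0.78 ± 0.35 (limma adjusted p = 0.327), 2 of 13 against 8.34% of all. There T cell markers were below 0 in 11 of 12 and NK cell markers in 7 of 8, and platelet markers above 0 in 14 of 15. Without the second MS array, which leaves only the array that stood apart, the median of the 13 was -0.82 against PLA and -0.77 against MTX. Without the first MS array it was -0.47 and -0.15. MTX and PLA had no member under 0.05, against 0.739% of all, and medians of the 13 were -0.62 (MS and PLA), -0.47 (MS and MTX) and -0.17 (MTX and PLA).

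The untreated arthritic arms, ANE and PLA together, were compared with NOCIA at 34 days. No member was called, against 3.68% of all probe sets. At an unadjusted p under 0.05 were 4 of the 13, against 17.7% of all: Mx2 at 1369202_at, described below, both probe sets of Stat2 and 1 of Irf9. Stat2 was higher by 0.62 ± 0.24 and 0.46 ± 0.21 (limma adjusted p = 0.18 and 0.265) and Irf9 (1374627_at) lower by 0.50 ± 0.18 (limma adjusted p = 0.143). Irf9 stood at 8.75, 8.70, 8.92 and 8.75 in the 4 arthritic arrays and at 9.05 and 9.50 in NOCIA, without overlap. Without the 4 arrays that stood apart 2 of the 13 were called, against 21.6% of all. B cell markers were above 0 in 6 of 7 here (2 called) and NK cell markers in 7 of 8 (1 called), and their part was not tested.

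At 1 hour Isg15 and Oasl had the largest positive differences from CIA baseline, in MS and MTX, but neither was called. Isg15 stood at 10.32 and 10.41 in MS, the highest group mean of the study for this gene, and at 9.33 and 10.35 in MTX, against 8.10 and 8.69 at baseline. It was higher by 1.97 ± 0.61 in MS and by 1.44 ± 0.61 in MTX. Every array of MS and MTX at 1 hour lay above both baseline arrays. Oasl stood at 9.15 and 9.76 in MS and at 9.40 and 9.85 in MTX, against 7.55 and 8.08. It was higher by 1.64 ± 0.56 in MS and by 1.81 ± 0.56 in MTX, again without overlap. The limma adjusted p was 0.55 for both genes in MS and 1.00 for both in MTX. Without the first MS array, which stood apart, the differences in MS were 2.01 for Isg15 and 1.95 for Oasl.

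These 2 of 13 stand against 8.3% of all probe sets under an unadjusted p of 0.05 in MS and 1.24% in MTX, with 0.00967% and 0.0145% called. All 8 neutrophil markers were above 0 in both comparisons, with a median of 0.55 in MS and 0.84 in MTX and none called, and all 15 platelet markers too. At 1 hour neutrophil markers were also above 0 in 8 of 8 in NOCIA, 7 of 8 in PLA and 7 of 8 in ANE (1 called). Their medians there were 0.73, 0.85 and 0.48. T cell markers were below 0 in 11 of 12 in MS (median -0.66) and 9 of 12 in MTX (-0.03). Monocyte markers were below 0 in 8 of 9 in MS (-0.91) and 6 of 9 in MTX (-0.16). The part of these markers was not tested. In the other groups at 1 hour the arrays of a pair lay further apart for Isg15. In ANE Isg15 stood at 8.46 and 10.20 and in PLA at 9.74 and 8.63, and in healthy rats at 10.09 and 8.70, against 9.24 and 9.23 at their baseline. Oasl stood at 7.39 and 9.46 in ANE, 8.14 and 8.57 in PLA and 9.03 and 7.99 in healthy rats. Neither gene had an unadjusted p under 0.05 in these groups, and a difference between MS or MTX and these groups at 1 hour was not tested. Medians of the 13 over the 1-hour comparisons lay between -0.27 (ANE) and 0.08 (MTX).

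Mx1 was the single member under an unadjusted p of 0.05 in ANE at 1 hour, at 9.36 and 8.81 and lower by 1.22 ± 0.44 (limma adjusted p = 0.415), against 10.8% of all probe sets under 0.05 and 0.0338% called. In PLA at 1 hour none of the 13 was under 0.05 (6.89% of all) and none called (0.0%). In NOCIA at 1 hour none was called (0.00483% of all) and 1 was under 0.05 (3.57% of all), Mx2 at 1369202_at.

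**Figure D3:**
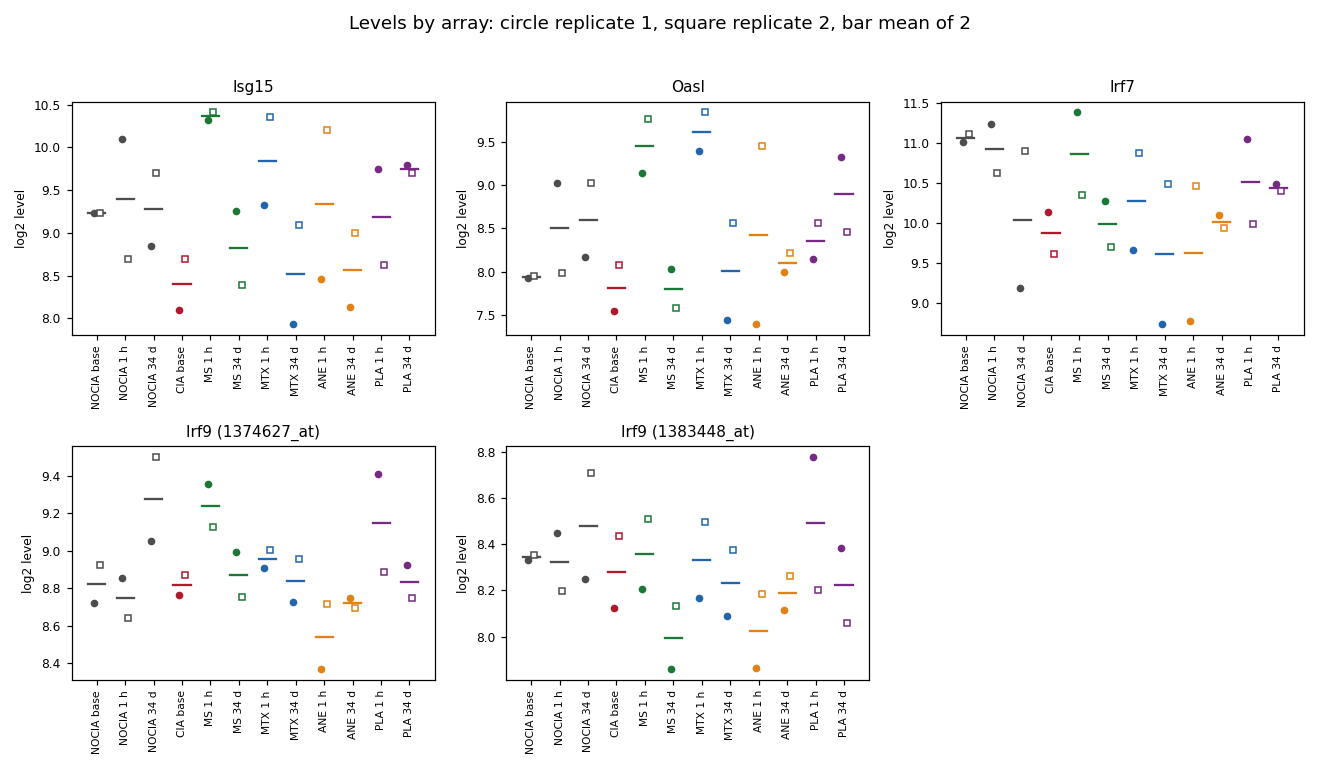
Log2 level (vertical axis) of Isg15, Oasl, Irf7 and the 2 probe sets of Irf9 in each of the 24 arrays, by group (horizontal axis), marked as for Mx1. Isg15 was highest in MS at 1 hour (10.32 and 10.41) and lowest in CIA at baseline (8.10 and 8.69), and the vertical range of Irf9 was the smallest.

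The 2 probe sets of Mx2 disagreed. Probe set 1369202_at lay at 2 separate levels. In 17 arrays it ran from 3.61 to 4.13, with a median of 3.84, and in 7 arrays from 6.68 to 9.08, with a median of 8.19. No array lay in the gap of 2.55 between them. What sets the 2 levels was not tested, nor whether this probe set reads the amount of the transcript alike in all rats. The 7 high arrays were both of NOCIA at 1 hour (9.08 and 7.94), both of ANE at 34 days (8.19 and 8.68) and 1 each of CIA at baseline (8.28), ANE at 1 hour (6.68) and MTX at 34 days (6.97). The levels thus split the 2 replicates of 3 groups, and 7 groups had no high array.

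The second probe set, 1387283_at, did not follow it. It ran from 6.0 to 7.66 in those 7 arrays and from 5.85 to 7.61 in the other 17, without a gap. A difference between groups in 1369202_at turns mostly on how many of the 2 rats lay at the high level. Its largest was in NOCIA at 1 hour against baseline, higher by 4.61 ± 1.15 (limma adjusted p = 0.898). ANE at 34 days was higher than CIA baseline by 2.46 ± 1.15 (limma adjusted p = 1.00), by 0.15 against the first CIA array alone and by 4.77 against the second. ANE and PLA at 34 days were higher than NOCIA by 2.25 ± 1.00 (limma adjusted p = 0.244), with the PLA arrays at 3.83 and 3.84. Both probe sets are annotated to Mx2 and to no other gene.

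**Figure D4:**
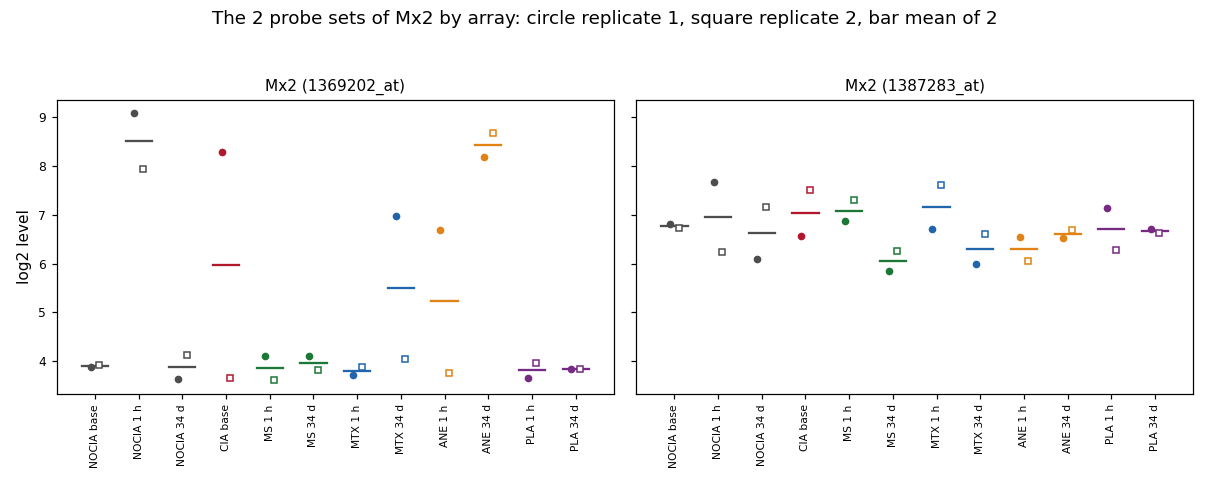
Log2 level (vertical axis, shared) of the 2 probe sets of Mx2 in each of the 24 arrays, by group (horizontal axis). Circles are replicate 1, squares replicate 2 and bars the mean of 2. Probe set 1369202_at lies near 3.84 in 17 arrays and near 8.19 in 7, and 1387283_at between 5.85 and 7.66 in all.

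The members were set beside T cell, platelet, monocyte and neutrophil markers over the 24 arrays. Other marker lists were not set beside them. Among these were B and NK cell markers, which had medians of -1.49 and -1.64 in MS at 34 days against CIA baseline. A relation particular to T cells is thus not shown. Mx1, Parp14 and Stat2 followed the mean level of 12 T cell markers. Mx1 had a Pearson r of 0.90 and a Spearman rho of 0.88 (permutation p adjusted over 26 relations = 8.67e-05 for each, from 1e-05, the smallest that 100000 permutations can give). Parp14 had an r of 0.86 and 0.84 and a rho of 0.83 and 0.82 (adjusted permutation p = 8.67e-05 for each). Stat2 had an r of 0.74 and 0.67 (adjusted permutation p = 0.00026 and 0.00361) and a rho of 0.76 and 0.56 (adjusted permutation p = 0.000325 and 0.0136). Without the 2 arrays farthest from the median marker level, the first MS arrays at 1 hour and at 34 days, r was 0.89 for Mx1, 0.79 and 0.75 for Parp14 and 0.71 and 0.54 for Stat2.

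For Isg15, Oasl and Irf7 no relation with the T cell markers was detected. Their r was -0.06, 0.01 and 0.01 (adjusted permutation p = 0.846, 0.951 and 0.951), and their rho 0.02, -0.06 and 0.10 (adjusted permutation p = 0.931, 0.804 and 0.784). Without the same 2 arrays r was 0.13, 0.02 and 0.27. The second Mx2 probe set, 1387283_at, had an r of 0.57 and a rho of 0.58 (adjusted permutation p = 0.00737 and 0.0101). Within groups, the array with the higher T cell marker level was also higher for Mx1 in 11 of 12 groups, for Parp14 in 10 and 9, for Stat2 in 8 and 9, for Isg15 in 8, for Oasl in 8 and for Irf7 in 6. By this count Stat2 was level with Isg15 and Oasl. The correlation of the differences between the 2 arrays of a group was 0.85 for Mx1, 0.75 and 0.78 for Parp14, 0.44 and 0.32 for Stat2, -0.08 for Isg15, -0.04 for Oasl and -0.33 for Irf7. A difference between the genes in these correlations was not tested. With 15 platelet markers, Mx1 had an r of -0.68, Parp14 -0.69 and -0.63 and Stat2 -0.67 and -0.58 (adjusted permutation p from 0.000832 to 0.00737), with a rho of -0.61, -0.60, -0.60, -0.63 and -0.47 (adjusted permutation p from 0.00619 to 0.0484). Isg15 had an r of -0.24, Oasl -0.24 and Irf7 -0.25 (adjusted permutation p = 0.359, 0.359 and 0.356), with a rho of -0.25, -0.25 and -0.22 (adjusted permutation p = 0.392, 0.392 and 0.462). Irf9 (1383448_at) and Mx2 (1387283_at) had an r of -0.51 and -0.49 (adjusted permutation p = 0.0256 and 0.0276). Their rho was -0.43 and -0.47 (adjusted permutation p = 0.0715 and 0.0484). Their other probe sets had an r of 0.07 and -0.06, and Rsad2 -0.23. Without the 2 arrays of highest platelet level, r was -0.53 for Mx1, -0.51 for Isg15, -0.35 for Oasl and -0.53 for Irf7. Within groups the correlation of the differences was -0.54 for Mx1, -0.66 and -0.64 for Parp14 and -0.84 and -0.62 for Stat2. It was -0.63 for Isg15, -0.51 for Oasl and -0.37 for Irf7. With monocyte markers r was 0.42 for Mx1, 0.50 and 0.44 for Parp14, 0.57 and 0.55 for Stat2 and 0.46 for Rsad2. It was 0.07 for Isg15, 0.26 for Oasl and 0.18 for Irf7. With neutrophil markers r was -0.02 for Mx1, 0.14 and 0.21 for Parp14 and 0.26 and 0.43 for Stat2. It was 0.36 for Isg15, 0.50 for Oasl, 0.21 for Irf7 and 0.50 for Rsad2. The relations with these 2 lists were not tested. Arrays share groups and marker levels depend on one another, so these values describe the libraries.

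**Figure D5:**
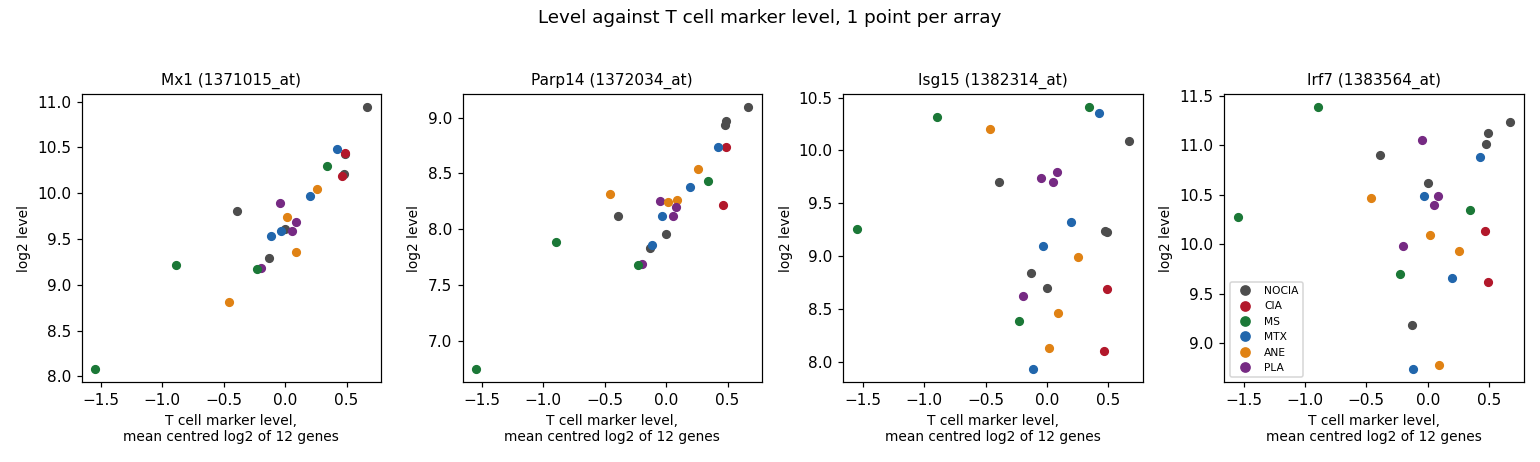
Log2 level (vertical axes) of Mx1, Parp14, Isg15 and Irf7 against the mean centred log2 level of 12 T cell markers (horizontal axes), with 1 point per array coloured by arm. Mx1 and Parp14 rise along the axis (r = 0.90 and 0.86) and Isg15 and Irf7 do not (r = -0.06 and 0.01), and the point at -1.55 is the first MS array at 34 days.

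Genes outside the members that tracked their mean level most closely were named by Pearson's r over the 24 arrays, as a description. They were Parp12 (0.88), Usp18 (0.86), Ifit2 (0.85), Herc6 (0.84), Gbp4 (0.84), Rtp4 (0.83), Rnf114 (0.82), Coq2 (0.81), Dhx58 (0.80) and Prkcb (0.77). Of these 10 genes 7 are in the interferon pathway lists below, which hold 89 measured genes. Usp18 removes Isg15 from proteins and damps receptor signalling, Dhx58 is a sensor of viral RNA, and Parp12, Ifit2, Herc6, Gbp4 and Rtp4 are themselves induced by interferon. Without the 4 arrays that stood apart r was 0.76 to 0.87 for the same 10.

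Upstream of the members, 6 of 11 interferon and receptor genes were measured, and Ifnb1 lay below the filter. The receptor chains Ifnar1 and Ifnar2 were not called in any of the 19 comparisons. In MS at 34 days against CIA baseline Ifnar1 differed by 0.03 ± 0.30 and Ifnar2 by -0.62 ± 0.31 (limma adjusted p = 0.948 and 0.157). Il10rb, a receptor chain shared by interferon-lambda and interleukin-10, fell by 1.41 ± 0.36 (limma adjusted p = 0.041), the only call among the 6. Of 15 measured kinases, factors and inhibitors of the relay (of 17 listed), 2 fell in that comparison: Irf2, an interferon regulatory factor, by 0.90 ± 0.25 and Ptpn6, the phosphatase SHP-1, by 1.44 ± 0.34 (limma adjusted p = 0.0472 and 0.0361). Irf1 differed by -0.50 ± 0.45 (limma adjusted p = 0.408). Of all probe sets 5.44% were called lower in this comparison. Without the first MS array the median of the 6 was -0.002 and that of the 15 was -0.23, against -0.57 and -0.50 with it. None of 12 nucleic acid sensors and adaptors was called, while 5 were lower at an unadjusted p under 0.05, against 23.6% of all.

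Of 56 further interferon-stimulated genes (of 77 listed), 5 fell and none rose in the MS comparison, against 5.44% of all probe sets called lower. Of the 56, 49 were below 0 with a median of -0.80, against 58.5% and -0.16 for all probe sets. These were Igtp, an interferon-inducible GTPase (-2.12 ± 0.54), Ddx60, a helicase of the RNA sensing path (-2.01 ± 0.57), Samhd1, which degrades nucleotides (-1.67 ± 0.44), Trim14 (-1.52 ± 0.35) and Nmi (-1.10 ± 0.30), with limma adjusted p from 0.034 to 0.0472. At the study's thresholds 18 were lower and 3 higher, against 8.63% and 5.22% of all, the latter being Lgals3bp (1.39 ± 0.54), Gbp2 (1.27 ± 0.53) and Cxcl9 (1.01 ± 0.47), none called. Without the first MS array or either CIA array none of the 56 was called, as of all probe sets (0.0%), and without the second MS array 33 were called lower and 4 higher, against 30.1% and 18% of all. The median was -0.43 without the first MS array, against -0.04 for all probe sets. The T cell and platelet marker changes given above for this comparison apply here as well. The relation of the 56 to these markers was not tested.

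In healthy rats over 34 days 5 of the same 56 fell, against 5.66% of all probe sets called lower: Tnfsf10, the death ligand TRAIL (-1.84 ± 0.42), Ifi27l2b (-1.80 ± 0.50), Trim14 (-1.77 ± 0.35), Slfn5 (-1.68 ± 0.47) and Ifi35 (-0.96 ± 0.27), with limma adjusted p from 0.00448 to 0.0295. Ptpn6 fell by 1.46 ± 0.34 (limma adjusted p = 0.0118). Tbk1, the kinase that activates Irf3 and Irf7, rose by 1.23 ± 0.28 (limma adjusted p = 0.0104). Without the 4 arrays that stood apart, 11 of the 56 were called lower and 1 higher, against 14.9% and 15.5% of all probe sets. In ANE and PLA against NOCIA at 34 days, Socs1, an inhibitor of the relay, was higher by 0.95 ± 0.25, and Tbk1 and Eif2ak2, the kinase that halts translation on viral RNA, were lower by 1.14 ± 0.24 and 0.84 ± 0.20 (limma adjusted p = 0.0472, 0.0207 and 0.0302). In the other group comparisons no gene of the 4 lists was called.

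Cxcl10, a chemokine induced by interferon-gamma, passed the study's thresholds in 8 comparisons without a call. Against CIA baseline it was higher by 3.07 ± 0.72 in MTX, 2.04 ± 0.72 in MS and 1.81 ± 0.72 in PLA at 1 hour, and by 2.68 ± 0.72 in ANE and 2.45 ± 0.72 in PLA at 34 days (limma adjusted p from 0.55 to 1.00). In NOCIA it was higher by 1.78 ± 0.72 at 34 days than at baseline (limma adjusted p = 0.135). In MS at 34 days it was lower by 2.77 ± 0.72 than in PLA and by 1.64 ± 0.72 than in MTX (limma adjusted p = 0.179 and 0.327). The first 5 of these share the CIA baseline arrays. Of all probe sets, 1.24% in MTX, 8.3% in MS and 6.89% in PLA at 1 hour had an unadjusted p under 0.05. At 34 days the share was 1.48% in ANE, 4.85% in PLA and 24.3% in NOCIA. Lower at that level were 13.4% in MS against PLA and 8.34% in MS against MTX. Shares at the study's thresholds are not given for these comparisons. Cxcl10 was picked from the 56 genes, and others that passed in these comparisons are not named.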

How the data were processed

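The authors deposited 1 log2 value per probe set and array, made per the labels by RMA with affy, for which no version is given. The study's methods also describe MAS5. Values ran from 2.18 to 15.02, and levels near the top, such as those of Rsad2, may be compressed. Per the labels, cells came from a Ficoll gradient and RNA was extracted in a single batch. The number of arrays, 2 a group, limits precision.

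Of 31099 probe sets, 20832 had 1 symbol in the platform annotation, 436 several and 9831 none. Of these 20832, 20764 were found in the RefSeq gene table. Leaving out 57 control probe sets and keeping those over the 40th percentile in 2 arrays or more left 20690. Comparisons used limma 3.58.1 (R 4.3.3) with a coefficient per group over 24 arrays and 12 residual degrees of freedom. A call is an adjusted p under 0.05 within a comparison. The smallest p of an exact two-sided permutation test of 2 against 2 arrays is 0.333, and p-values come from the spread between arrays pooled over the groups.

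The members and lists were chosen with earlier results of these data known. All members are named at every probe set, with changes where called or under an unadjusted p of 0.05. Pathway genes are named where called, with Ifnar1, Ifnar2 and Irf1 always eligible. Of those past the study's thresholds without a call, only Cxcl10, Lgals3bp, Gbp2 and Cxcl9 are named and others are not. For lists, marker levels and the genes most like the members, a gene was read at its probe set with the highest mean. Marker lists covered T, B and NK cells, monocytes, plasmacytoid dendritic cells, neutrophils, platelets and erythroid cells. Alternatives were a replicate block, only the groups compared, no filter, a 60th percentile filter, array weights, quantile normalization, a robust limma-trend fit, 1 probe set a gene, leaving out each array and, added after seeing the data, leaving out the 4 arrays that stood apart. The fit was tested on simulated data. Other steps ran in Python 3.11.15 with numpy 2.4.6, pandas 2.3.3 and matplotlib 3.10.9.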

Additional observations from a re-analysis of the deposited data

How the results depend on the processing

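No change that was called turned its direction. Medians near 0 did turn, among them that of ANE and PLA against NOCIA (0.19, to -0.09), NOCIA at 1 hour (-0.04, to 0.17) and ANE at 34 days (0.06, to -0.13), each with an array left out. The share of all probe sets called moved with the setting, so counts of members alone are no result about them. Without the 4 arrays that stood apart it was 0.725% in MS at 34 days against CIA baseline, against 6.96% with all arrays. In NOCIA at 34 days against baseline it was 30.4%, against 12%. In ANE and PLA against NOCIA it was 21.6%, against 3.68%, and in the ANE change against the NOCIA change 18.3%, against 2.86%. Shares for the other settings are not given here. Counts of the 13 member probe sets called moved as follows. In MS at 34 days against CIA baseline (5 called), 3 were called with quantile normalization, 0 with array weights, 0 with only the groups compared, 0 without the 4 arrays that stood apart, and 0 to 5 when each array was left out. In NOCIA at 34 days against baseline (1 called), 3 were called with quantile normalization, 6 with array weights, 5 with only the groups compared, 3 without the 4 arrays and 0 to 1 when each array was left out. In ANE and PLA against NOCIA at 34 days (0 called), the same settings gave 1, 3, 2 and 2. In the ANE change against the NOCIA change (0 called), they gave 1, 2, 3 and 2. With array weights 1 was called in PLA at 34 days and 1 in MTX at 1 hour. With only the groups compared 1 was called in CIA against NOCIA at baseline, 1 in NOCIA at 1 hour and 2 in the PLA change against the NOCIA change. With each array left out, the median of the 13 ran from -0.82 to -0.47 in MS against PLA at 34 days. In MS against MTX it ran from -0.77 to -0.15. The causes were not tested. Quantile normalization moved the median of all probe sets in MS at 34 days against CIA baseline from -0.16 to -0.05. Replicate numbers did not pair the samples, since over 66 pairs of groups the correlation of the deviations ran from -0.76 to 0.80 with a median of -0.01. With the replicate block 5 members were called in MS and 1 in NOCIA at 34 days, as without it, and no other call changed. Median changes stayed within the spread between arrays (SD 0.35) in 189 comparisons with another setting and in 89 with an array left out. They moved further in 1, PLA at 1 hour with 1 probe set a gene (0.33, against -0.05), and in 5 with an array left out. Where an arm was left with 1 array, that array was taken to vary like the other groups.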
